A study of Mus musculus with 6 samples.

Results

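The genes described are 6 members of the circadian clock: Arntl, Clock, Npas2, Nfil3, Rora and Cry1. They are its activators together with genes of the limb of the clock that controls BMAL1, the protein made from Arntl. They were taken as a fixed list out of 35082 genes in the files. The values that describe them are the summed counts of all transcripts of a gene, compared between livers labelled as a knockout and control livers. All 6 passed the filter on low counts, as did 12497 genes in all. The members were chosen by their CPM (counts scaled to library size) in this same contrast, so their differences between the groups are given as a description, without a test.

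The molecular clock is a feedback loop of transcription. BMAL1 pairs with CLOCK, or with its paralogue NPAS2, and the pair binds E-box sequences to switch on the genes of the PER and CRY repressors, of the REV-ERB receptors and of the PAR bZIP factors such as Dbp. A second loop sets Arntl itself: ROR receptors activate and REV-ERB receptors repress it through ROR response elements, and Npas2, Clock, Nfil3 and Cry1 are also known to be under this control. In liver the clock times lipid, bile acid, glucose and drug metabolism, and Arntl transcripts are known to peak in opposite phase to those of Dbp.

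RNA was taken from the liver of 6 male mice, all on a high-fat diet that began at 8 weeks of age and lasted 20 weeks, under cycles of 12 hours of light and 12 of dark. The 3 controls are called wild-type in their titles, while their genotype label gives floxed G3bp1 alleles with no Cre (G3BP1f/f). The other 3 carried the same floxed alleles with a Cre transgene driven by the albumin promoter (Alb-cre; G3BP1f/f), which acts in hepatocytes. Liver cells in which Cre did not act keep the gene by design. All 6 mice share the diet, and since the controls carry no Cre, an effect of Cre itself cannot be told apart from that of the deletion. No label gives the hour at which a liver was taken.

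Totals lay between 20899135 and 21750007 estimated counts per library. The targeted gene did not set the groups apart: G3bp1 measured 44.1, 34.8 and 40.5 CPM across the 3 controls and 44.0, 30.0 and 31.5 CPM in the other group. Its paralogue G3bp2 had 19.5, 34.1 and 35.1 CPM in the controls and 28.0, 37.2 and 50.4 CPM in the other group, also with overlap. Counts were summed over the whole gene and no single exon was examined, so these values cannot settle whether the floxed part was deleted. The group labelled as knockout is therefore called Cre-labelled, after the label and not as a checked genotype. Albumin and 9 other hepatocyte markers summed to between 102000 and 132800 CPM in controls and between 72760 and 118100 CPM in Cre-labelled libraries, so the defining genes of the labelled tissue were present at high levels in every library. Cre-labelled replicates 2 and 3 stand apart in having counts on 36.3% and 37.8% of transcripts, against 30.2% to 31.2% in the other 4 libraries. Cre-labelled replicate 1 differs in the effective length of the shortest entry, of 9 bases, which is 1.82 there and 9 elsewhere. The cause of that difference was not tested.

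The start regions of 3 members are shown because they hold matches to the letters of elements named above. Whether these matches are bound or used in liver was not tested. Each is a RefSeq window on GRCm38.p6, from 250 bases before to 50 bases after an annotated start, written 5′ to 3′ on the strand of the gene. Capitals mark matches to AGTAGGTNA, the core of a ROR response element, in Arntl and Nfil3, and to the E-box CACGTG in Cry1. Arntl lies at chr7:113207261-113207560 on the plus strand, Nfil3 at chr13:52980990-52981289 and Cry1 at chr10:85185005-85185304, both on the minus strand.
Arntl: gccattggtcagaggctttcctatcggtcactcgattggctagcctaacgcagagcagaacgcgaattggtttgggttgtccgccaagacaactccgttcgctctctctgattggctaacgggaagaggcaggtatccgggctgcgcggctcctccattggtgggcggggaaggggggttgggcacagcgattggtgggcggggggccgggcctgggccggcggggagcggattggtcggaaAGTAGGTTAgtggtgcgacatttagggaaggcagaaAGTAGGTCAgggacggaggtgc
Nfil3: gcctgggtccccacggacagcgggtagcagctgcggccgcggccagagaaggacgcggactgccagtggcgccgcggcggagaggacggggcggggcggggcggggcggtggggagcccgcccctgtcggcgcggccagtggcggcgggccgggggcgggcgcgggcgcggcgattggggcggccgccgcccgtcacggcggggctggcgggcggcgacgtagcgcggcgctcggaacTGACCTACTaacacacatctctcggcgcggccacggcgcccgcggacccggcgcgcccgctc
Cry1: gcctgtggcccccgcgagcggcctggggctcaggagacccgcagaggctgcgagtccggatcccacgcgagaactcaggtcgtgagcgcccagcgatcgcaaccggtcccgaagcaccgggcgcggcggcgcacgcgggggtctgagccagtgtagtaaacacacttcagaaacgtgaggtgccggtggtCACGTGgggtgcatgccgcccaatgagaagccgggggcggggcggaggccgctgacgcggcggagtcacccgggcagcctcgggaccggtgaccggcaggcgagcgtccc

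The Arntl window shown holds 2 copies of the element core, which begin at -8 and 29 from the annotated start (113207511). Another RefSeq window of Arntl, with its start at 113207465, holds only the first of these copies, at 39 from that start. In Nfil3 the match lies on the opposite strand and begins at -12, and in Cry1 the E-box begins at -60. Both strands were searched. A core was found in 0.591% of 32851 windows in the RefSeq table. In 3 windows 2 or more cores were found, and the Arntl window shown is 1 of these. The E-box was found in 7.15% of windows. The letters of the core were set after the Arntl and Nfil3 windows had been read, so the matches describe these 2 genes and test nothing. The RefSeq windows of Clock, Npas2 and Rora hold no match to either sequence or to TTANGTAA, the D-box bound by PAR bZIP factors and NFIL3, which was found in 2.32% of windows and in no member's window. All 6 members matched the table, with 9 windows among them.

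Among the activators Arntl and Npas2 had the 2 largest differences of the 6 members, and Clock came after Nfil3. Arntl (ENSMUSG00000055116, chromosome 7, 113207465 to 113314126, plus strand, GRCm38) encodes BMAL1, the partner shared by both activating pairs. Control replicates 1, 2 and 3 had 0.532, 2.57 and 1.05 CPM of Arntl, and Cre-labelled replicates 1, 2 and 3 had 3.97, 8.28 and 9.05 CPM. Every Cre-labelled library lay above every control, control replicate 2 stood highest among the controls, and Cre-labelled replicate 1 lay well below the other two of its group. The means were 1.39 ± 1.06 and 7.10 ± 2.74 CPM (SD, n = 3 each), a log2 difference of 2.36 with a standard error of 0.56, larger than the difference of 99.9% of tested genes.

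Few reads lie behind Arntl in the controls. They held 10, 47 and 22 counts, and the exact 95% Poisson interval of the lowest ran from 4.80 to 18.4 counts, against 92, 187 and 216 counts in the Cre-labelled libraries. These intervals, here and below, cover counting error only. Leaving out control replicate 2 gave a log2 difference of 3.15, and leaving out control replicate 1 gave 1.97.

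Npas2 (ENSMUSG00000026077, chromosome 1, 39193731 to 39363236, plus strand) encodes the paralogue of CLOCK and was the scarcest member. It measured 0.213, 0.493 and 0.238 CPM in the controls and 1.04, 1.42 and 1.76 CPM in the Cre-labelled libraries. The groups did not overlap, and control replicate 2 was again the highest control. Mean levels were 0.315 ± 0.155 and 1.40 ± 0.363 CPM (SD, n = 3 each), a log2 difference of 2.15 with a standard error of 0.48. The controls held 4, 9 and 5 counts, where 3 counts equal 0.138 to 0.144 CPM of the library totals, and the Cre-labelled libraries 24, 32 and 42, so the size of this difference is loosely set. Without control replicate 2 it was 2.61, and in deposited TPM (a level per unit of transcript length) with 0.1 added it was 1.53, a scale that shrinks low genes.

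Clock (ENSMUSG00000029238, chromosome 5, 76209868 to 76304792, minus strand) encodes the bHLH-PAS factor that pairs with BMAL1. It measured 13.0, 18.9 and 10.7 CPM in the controls and 19.2, 25.0 and 23.1 CPM in the Cre-labelled libraries. The groups did not overlap, but by a narrow margin, since the lowest Cre-labelled library was 1.02 times the highest control. Means of 14.2 ± 4.24 and 22.4 ± 2.93 CPM (SD, n = 3 each) gave a log2 difference of 0.66 with a standard error of 0.25. The Clock difference was 0.46 once a length trend had been taken out of every library.

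**Figure D1:**
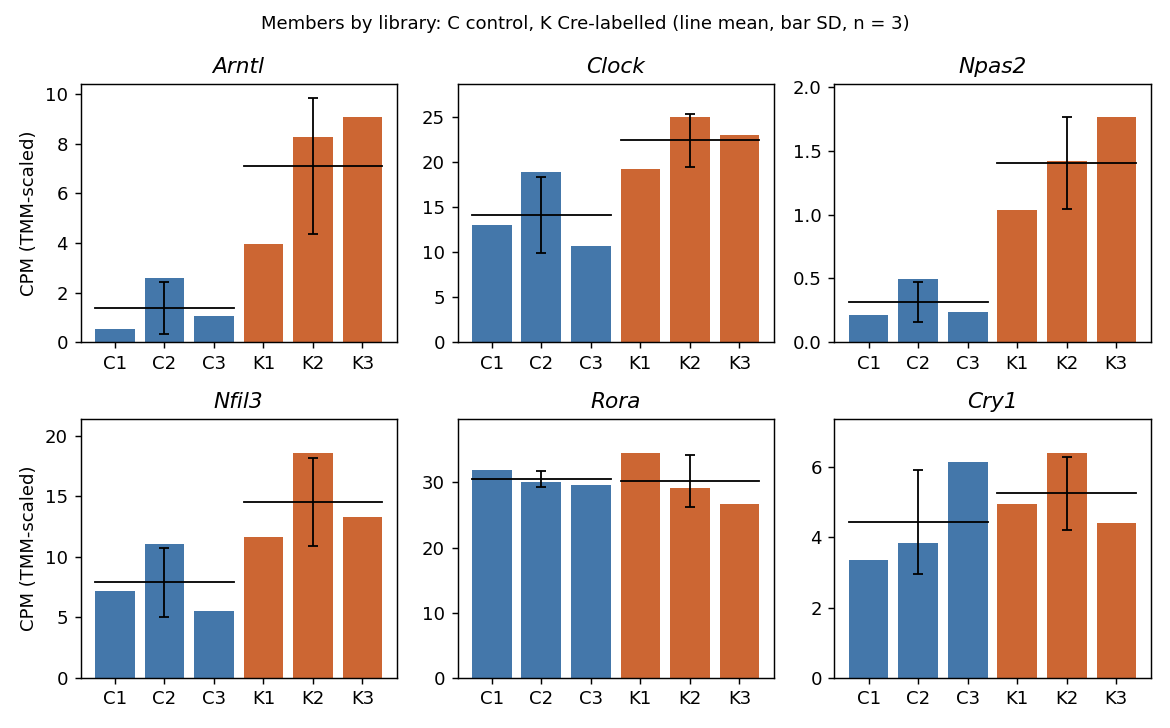
CPM of each member in each library (vertical axes from 0, scales differ between panels), with control replicates as C1 to C3 and Cre-labelled replicates as K1 to K3; horizontal lines are group means and error bars the SD of 3 libraries. Arntl, Npas2, Clock and Nfil3 lie higher in every Cre-labelled library than in any control, while Rora and Cry1 overlap.

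Nfil3 (ENSMUSG00000056749, chromosome 13, 52967209 to 52981073, minus strand) encodes a repressor that competes with the PAR bZIP factors for D-boxes. It measured 7.13, 11.0 and 5.48 CPM in the controls and 11.6, 18.6 and 13.3 CPM in the Cre-labelled libraries. No control reached a Cre-labelled library, although control replicate 2 came within a factor of 1.05 of Cre-labelled replicate 1. The means were 7.87 ± 2.84 and 14.5 ± 3.64 CPM (SD, n = 3 each), a log2 difference of 0.88 with a standard error of 0.31. It ran from 0.66 without Cre-labelled replicate 2 to 1.2 without control replicate 2.

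Nfil3 is also known for its role in NK and innate lymphoid cells. In bulk tissue, fewer cells of a type and less RNA per cell cannot be told apart. Of 10 T, NK and innate lymphoid cell markers 5 were tested and all 5 had a log2 difference below 0, with none of the 10 at 0 counts throughout, and their summed level was 5.91, 7.45 and 18.8 CPM in controls and 10.9, 3.01 and 5.45 CPM in Cre-labelled libraries. Control replicate 3 set this direction, since without it 2 of the 5 lay below 0 and the mean sums were 6.68 and 6.46 CPM. The part of such cells in the Nfil3 values was not tested.

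Rora (ENSMUSG00000032238, chromosome 9, 68653786 to 69388246, plus strand) encodes a receptor known to activate Arntl through ROR response elements. It measured 31.9, 30.0 and 29.7 CPM in the controls and 34.6, 29.2 and 26.7 CPM in the Cre-labelled libraries. The controls fell inside the range of the other group, with means of 30.5 ± 1.19 and 30.2 ± 4.00 CPM (SD, n = 3 each) and a log2 difference of -0.02 with a standard error of 0.18. This value depends on the scaling. Scaled by library totals instead of by TMM, it was 0.24 and the groups did not overlap, and in deposited TPM, at 2.10, 1.97 and 2.18 in controls and 2.76, 2.73 and 2.82 in the Cre-labelled libraries, they did not overlap either. With the length trend removed it was -0.27. Library totals moved the median log2 difference of all genes from 0.01 to 0.27, above the value of Rora under that scaling.

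Cry1 (ENSMUSG00000020038, chromosome 10, 85131700 to 85185064, minus strand) encodes a cryptochrome that represses the BMAL1 pairs, and carries both E-box and ROR element control. It measured 3.35, 3.83 and 6.15 CPM in the controls and 4.96, 6.42 and 4.40 CPM in the Cre-labelled libraries. The groups overlapped, and the highest control, replicate 3, was not the library that stood highest for Arntl, Clock, Npas2 and Nfil3. Means were 4.44 ± 1.49 and 5.26 ± 1.04 CPM (SD, n = 3 each), and the log2 difference of 0.24 had a standard error of 0.31. Without control replicate 1 it was 0.07 and without control replicate 3 it was 0.56.

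Of the 6 members 5 lay above 0, where 51.6% of all genes tested did, 2 lay above 1, where 1.92% did, and 4 did not overlap between groups in the higher direction, where 4.79% of all genes did. The median of the members was 0.77, against 0.01 over all genes. Since the choice of members used this contrast, these shares support nothing. Among all genes, edgeR's quasi-likelihood test called 0 genes higher and 0 lower after Benjamini-Hochberg adjustment (0.0% in each direction, smallest adjusted p = 0.845). At an unadjusted p under 0.05 it had 331 higher (2.65%) and 237 lower (1.9%), limma voom called 0, and DESeq2 called 7 higher (0.0543% of 12894 genes) and 5 lower (0.0388%).

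**Figure D2:**
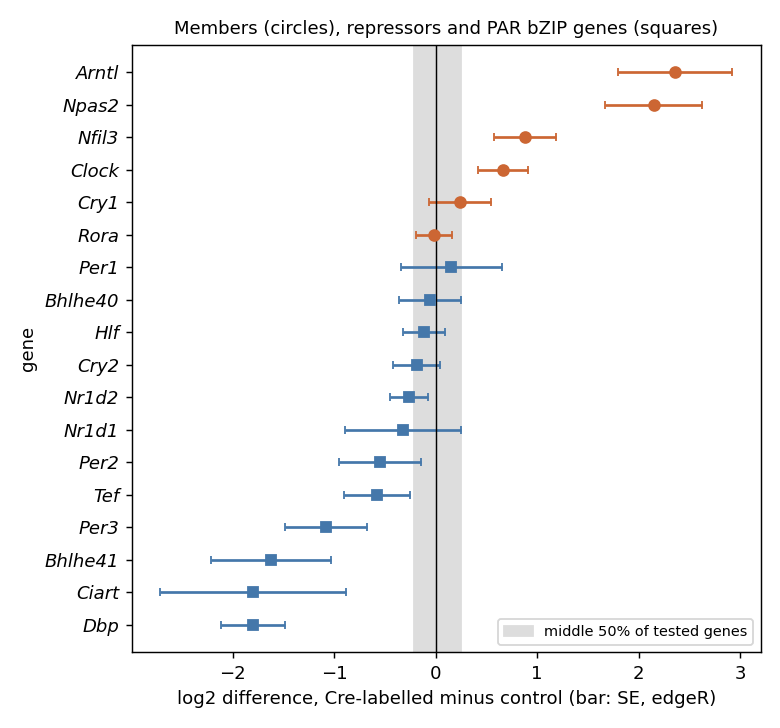
Log2 difference between Cre-labelled and control libraries with its standard error from edgeR, for the 6 members (circles) and for 12 repressor and PAR bZIP genes (squares); the grey band holds the middle 50% of all tested genes. Arntl and Npas2 lie above 2, Clock and Nfil3 between 0.66 and 0.88, Cry1 and Rora lie inside the band, and Dbp and Ciart lie lowest, both at -1.80.

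With any 1 of the Cre-labelled libraries left out the difference stayed between 2.15 and 2.64 for Arntl, 1.95 and 2.32 for Npas2, 0.58 and 0.76 for Clock and 0.66 and 1.02 for Nfil3. The highest value of each came without replicate 1, and the lowest without replicate 3 for Arntl and Npas2 and without replicate 2 for Clock and Nfil3.

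Within the groups 4 members shared the highest control and the lowest Cre-labelled library, but not the full order of libraries. For Arntl, Clock, Npas2 and Nfil3, the 4 members that did not overlap between groups, control replicate 2 was the highest control and Cre-labelled replicate 1 the lowest of its group. Over all genes these places were seen in 32.9% and 40.9%. For Arntl the low place of Cre-labelled replicate 1 changed when counts assigned to 1 transcript, Arntl-201, described below, were left out. The Cre-labelled libraries then had 3.77, 3.66 and 4.16 CPM of Arntl, with replicate 2 the lowest. Arntl-201 shares 2554 of its 2908 bases with Arntl-203, so this omission can also take out reads over shared bases. Summed over all transcripts, replicate 1 was the lowest, at 92 counts against 187 and 216. The correlations that follow include the counts assigned to Arntl-201. Deviations from the group means over the 6 libraries had r = 0.96 for Clock and Nfil3, 0.95 for Arntl and Npas2, 0.85 for Clock and Npas2, 0.76 for Arntl and Clock, 0.71 for Npas2 and Nfil3 and 0.68 for Arntl and Nfil3. Rora had r between -0.66 and -0.24 with these 4, Cry1 between -0.37 and 0.11, and Rora and Cry1 had r = -0.12 with each other. These are descriptions over 6 libraries that share depth and scaling, with 4 degrees of freedom left after the group means. The median deviation of all 6 members was -0.51, -0.07 and -0.81 log2 units from the first to the third control and 0.18, 0.67 and 0.37 among the Cre-labelled libraries.

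Per unit of length, in deposited TPM, the order of the members was Nfil3, Rora, Clock, Cry1, Arntl and Npas2, with medians over the 6 libraries of 4.58, 2.46, 1.46, 1.44, 1.03 and 0.142 TPM. Each neighbour in this order overlaps the next in its range over the libraries. Within every library Nfil3 ranked 1 and Npas2 ranked 6. Arntl ranked 5 in the controls and in Cre-labelled replicate 1, and 2 in Cre-labelled replicates 2 and 3, above Rora, Clock and Cry1.

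Ratios of 2 genes in the same library do not depend on library scaling. The level per length of Npas2 was 0.0389, 0.0620 and 0.0532 of that of Clock in the controls and 0.126, 0.133 and 0.252 of it in the Cre-labelled libraries. The scarcer paralogue thus took a larger share of the pair in each Cre-labelled library, while Clock stayed the more abundant partner in all 6. The control ratios rest on 4, 9 and 5 counts of Npas2. The 0.252 of replicate 3 includes 1 count on Npas2-203, of 484 bases, where a count adds more TPM than on Npas2-201, of 4236 bases. Clock exceeded Arntl 6.20, 1.81 and 2.47 times in the controls and 1.21 times in Cre-labelled replicate 1, but was at 0.786 and 0.640 of it in replicates 2 and 3. Cry1 was at 0.182, 0.325 and 0.509 of Cry2, its fellow cryptochrome, in the controls and at 0.366, 0.517 and 0.358 in the Cre-labelled libraries, which overlap.

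The transcript behind the Arntl counts differed between libraries. Arntl-203, of 2554 bases, took 0.479, 2.32 and 1.05 CPM in the controls and 3.77, 3.28 and 3.79 CPM in the Cre-labelled libraries. Arntl-201, of 2908 bases, took 0, 0.257 and 0 CPM in the controls, 0.195 CPM in Cre-labelled replicate 1, and 4.62 and 4.89 CPM in replicates 2 and 3. The longer form was at or below 0.257 CPM outside the 2 libraries that also have counts on the most transcripts. The part of that property in this value was not tested. Without the counts of Arntl-201 the gene measured 0.532, 2.32 and 1.05 CPM in controls and 3.77, 3.66 and 4.16 CPM in Cre-labelled libraries, so the groups still did not overlap, and the means were 1.30 and 3.86 CPM in place of 1.39 and 7.10.

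All 2554 bases of Arntl-203 are also in Arntl-201, which adds 354 bases: 61 at its start, from 113207465, exons of 128 and 126 bases before the coding region (113274626 to 113274753 and 113279457 to 113279582), and a coding exon of 39 bases (113283257 to 113283295). The estimate of how counts divide between the 2 forms rests on reads over those bases. The first element core of the start region (113207503 to 113207511) lies inside the first exon of Arntl-201 and before the first base of Arntl-203 (113207526).

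**Figure D3:**
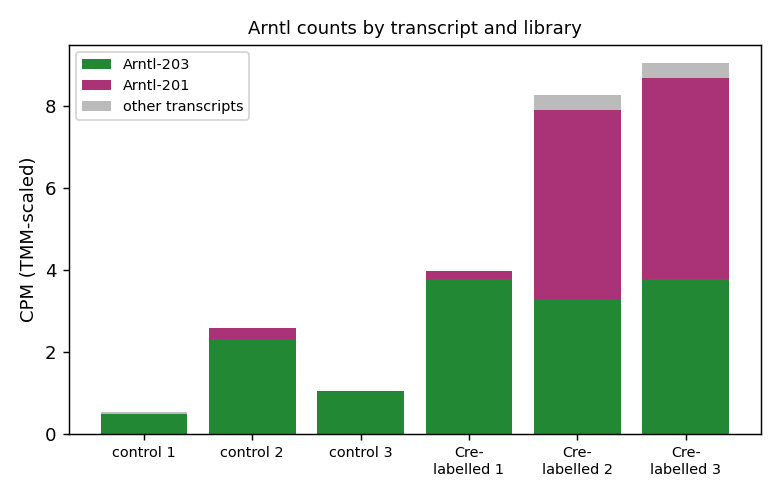
Arntl level (CPM, vertical axis from 0) in each library, divided by annotated transcript. Arntl-203 makes up most of the bar in the controls and Cre-labelled replicate 1, whereas Arntl-201 adds 4.62 and 4.89 CPM in Cre-labelled replicates 2 and 3.

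Other members rested on 1 transcript each. Cry1-201 and Nfil3-201 took 100% of the counts of their genes, Clock-205 99.4%, Npas2-201 99.1% and Rora-201 98.7%. Rora-201, of 10878 bases, begins at the far upstream start of the gene, and Rora-202, of 2591 bases, which begins at 69289682, held 2.2 counts in 1 library and 0 in the others. The annotated lengths of these forms differ so widely that reads from a long shared 3′ end would be given to Rora-201, and which start was used is not settled by these sums.

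The rest of the clock was described from lists of 54 genes, of which 52 were tested and Arntl2 and Rorb did not pass the filter, Rorb with 0 counts in all 6 libraries. None was called by edgeR in either direction, while 3 had an unadjusted p under 0.05 and lay higher (5.77%, against 2.65% of all genes) and 7 lay lower (13.5%, against 1.9%). The 3 were Cdkn1a, a cell cycle inhibitor gene (1.68), the elongase gene Elovl3 (1.02) and Kmt2a (0.66), of which Cdkn1a and Elovl3 overlapped between groups. DESeq2 called 2, Dbp and Ppp1r3g, both lower. The groups did not overlap for 2 genes that lay higher (3.85%, against 4.79% of all genes) and for 8 that lay lower (15.4%, against 4.55% of all genes). Since the lists were chosen with earlier results of these data known, these shares are a description and test nothing. Of the 52, 36 lay below 0, with a median of -0.15. That count was 20 with library totals and 16 in deposited TPM, where the medians of all genes were 0.27 and 0.34, and it was 27 without control replicate 1. The genes below the median of all genes numbered 36 with library totals and 34 in TPM.

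Among targets of the activators, Dbp, the PAR bZIP factor that NFIL3 opposes, measured 149, 84.8 and 75.3 CPM in the controls and 35.3, 31.3 and 22.1 CPM in the Cre-labelled libraries (log2 difference -1.80, standard error 0.32, edgeR adjusted p = 0.845, DESeq2 adjusted p = 0.000411). The TPM of Arntl was 0.00215, 0.0196 and 0.00889 of that of Dbp in the controls and 0.0599, 0.152 and 0.253 of it in the Cre-labelled libraries, without overlap. The other PAR bZIP genes, Tef and Hlf, had differences of -0.58 and -0.11 with overlap between groups.

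Of 9 repressors tested that act on the activators, 8 lay below 0 and none was called by edgeR. Over all genes tested 51.6% lay above 0. The count of repressors below 0 was 6 without control replicate 1 and 7 to 9 with any other library left out. Per3 (-1.08) and Bhlhe41 (-1.62) had an unadjusted p under 0.05, with overlap between groups. Ciart, which encodes a repressor of the BMAL1 pairs, had the largest difference of the list (-1.80, standard error 0.92, edgeR adjusted p = 0.845), at 25.7, 3.18 and 26.9 CPM in controls and 12.4, 1.86 and 1.80 CPM in Cre-labelled libraries, so control replicate 2 fell inside the range of the other group. Nr1d2, a REV-ERB receptor gene, measured 44.4, 47.8 and 46.7 CPM in controls and 33.0, 43.3 and 39.5 CPM in Cre-labelled libraries, the 1 repressor without overlap (log2 difference -0.26, edgeR adjusted p = 0.849), though in deposited TPM its difference was 0.11. Nr1d1, which encodes REV-ERB alpha, ran from 19.2 to 137 CPM within the controls and from 51.3 to 75.8 CPM in the other group. Control replicate 3 was the lowest control for Nr1d1, and its Arntl level lay between those of the other controls.

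In the list of other clock factors Tipin, Nr2f6 and Timeless had differences of -0.30, -0.24 and -0.26, all with overlap. That of Nr2f6 turned to 0.03 with library totals, that of Tipin to 0.12 in TPM, and that of Timeless to 0.17 without control replicate 1. Of 11 genes for enzymes that modify or degrade clock proteins, Fbxw11, a substrate adaptor of a ubiquitin ligase that targets PER, lay higher without overlap (0.23, but 0.15 without control replicate 1, 0.067 with the length trend removed, 0.48 with library totals and 0.66 in TPM) and Csnk2a1, a casein kinase 2 subunit, lower without overlap (-0.14, and 0.13 with library totals). Of 8 coactivators and corepressors, Kmt2a, a histone methyltransferase gene known to work with CLOCK, lay higher without overlap (0.66, edgeR adjusted p = 0.845).

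Of 17 output genes 5 did not overlap between groups and all 5 lay lower. Over all genes 4.55% lay lower and 4.79% higher without overlap. These were Ppp1r3g, a glycogen-targeting subunit (-1.86), the kinase gene Wee1 (-1.36), the haem synthesis gene Alas1 (-1.33), Gys2, the liver glycogen synthase (-0.53), and Tspo (-0.34, and 0.04 in TPM). By edgeR each had an adjusted p of 0.845. Without control replicate 3, Alas1 was at -0.73 and Wee1 at -0.93. In TPM, where the median of all genes was 0.34, Alas1 was at -0.51, Wee1 at -0.86 and Gys2 at -0.17, and with library totals Gys2 was at -0.28 and Tspo at -0.081. Of the 17 output genes 12 lay below 0, where 51.6% of all genes tested lay above 0.

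**Figure D4:**
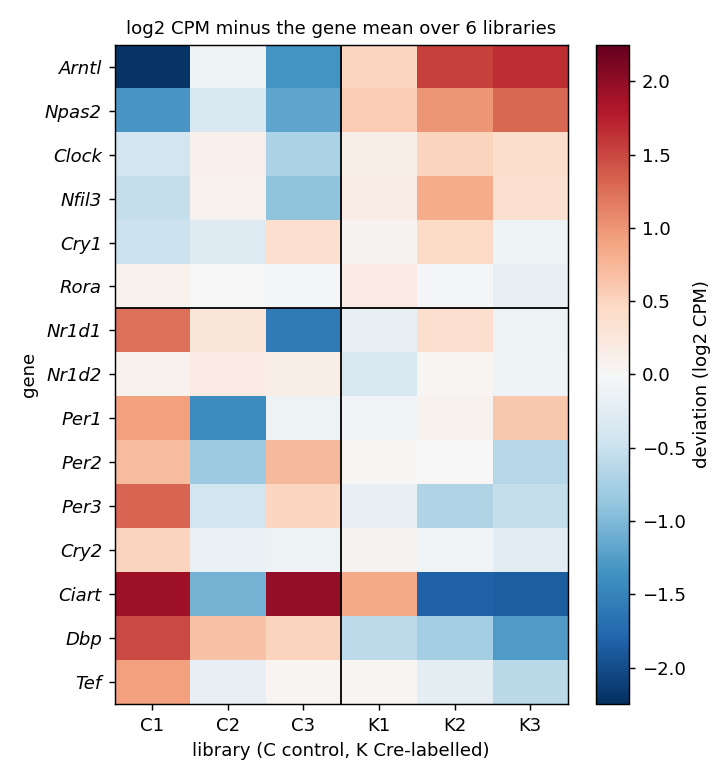
Log2 CPM of 15 clock genes minus the mean of each gene over the 6 libraries (colour, red above and blue below the mean), with libraries as columns and the members above the horizontal line. Arntl and Npas2 run from below the mean in all controls to above it in all Cre-labelled libraries, Dbp runs the other way, and Per1, Per2, Per3 and Nr1d1 lie both above and below their means within the controls.

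Likeness to Arntl was ranked among 10996 tested genes with a mean of at least 1 CPM, leaving out genes with predicted names and pseudogenes. The genes whose levels followed Arntl most closely over the 6 libraries were Ccng2 (cyclin G2), Lrrc59, Sssca1, Bmt2 and Tmem131, with Pearson r between 0.98 and 0.99. Ccng2 measured 5.75, 9.20 and 6.96 CPM in controls and 9.97, 13.9 and 12.8 CPM in Cre-labelled libraries. The genes running most opposite to Arntl were Ubl5, Rec114, Romo1, Mcrip2 and Cd59b, with r between -0.98 and -0.99. Of the 10996 genes 168 had r above 0.9 and 162 below -0.9. Among clock genes Clock ranked 112 from the top with r = 0.92 and Nfil3 201 with r = 0.89, and Ppp1r3g, Gys2 and Dbp ranked 18, 31 and 52 from the bottom. Npas2 lies under the 1 CPM limit and was not ranked, and its r with Arntl was 0.98. All these r values include the difference between the groups, on which the members were chosen, so the ranks are a description. With group means removed, r with Arntl was 0.76 for Clock, 0.68 for Nfil3 and 0.95 for Npas2.

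Markers of other cell types were set beside the members. The 5 tested of 6 red blood cell markers lay below 0, at 727 to 1678 CPM summed in controls and 438 to 1107 CPM in Cre-labelled libraries, and did so with any 1 library left out. All 11 macrophage markers lay below 0 as well, none at 0 counts, with a summed level of 258, 392 and 823 CPM in controls and 368, 257 and 325 CPM in Cre-labelled libraries. Control replicate 3 alone stood above the rest, and without it 6 of the 11 lay below 0 and the mean sums were 325 and 317 CPM. Control replicate 2, the highest control for the 4 members above, had 727 CPM of red blood cell markers, the lowest among controls. Of the remaining lists, 5 of 7 endothelial, 4 of 8 stellate cell, 1 of 4 tested bile duct, 1 of 3 tested neutrophil and 4 of 5 B cell markers lay above 0. The part of these cells in the members' values was not tested.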

How the data were processed

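Liver RNA of 6 mice, enriched for poly-A RNA per the labels' protocols, was quantified by the authors as 1 file per library. Per the file headers, the deposited estimated counts are unscaled reads per transcript, and the deposited TPM are divided by effective length and brought to 1 total. The columns are those of Salmon, with no version or transcriptome named there; the submitters' processing notes list Bowtie2 2.2.5, RSEM 1.2.8, DESeq and GRCm38 with no role.

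Of 115221 transcripts 113664 matched GENCODE M21 (GRCm38) by identifier without version, and 1557 matched none and were left out. Counts were summed per gene, rounded, filtered with filterByExpr, scaled with TMM (factors 0.842 to 1.14) and tested with edgeR 4.0.16 in R 4.3.3 (two-sided, Benjamini-Hochberg, threshold 0.05). Standard errors are the absolute log2 difference over the root of F. CPM are TMM-scaled, and log2 CPM used a prior count of 2. Alternatives used DESeq2 1.42.0, limma 3.58.1, other scalings, no filter, omission of each library, a replicate block, TPM plus 0.1 and removal of a length trend (loess, span 0.5). The tests were checked on simulated counts. Use of strand is not stated, so overlapping and antisense genes cannot be told apart.

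Members and lists were chosen with earlier results of these data known. Named genes are the members, G3bp1 and G3bp2, for each clock list the genes without overlap between groups (else up to 3 of smallest p), and the 5 genes most and least like Arntl; genes named beyond these, such as Nr1d1, Ciart, Tef, Hlf, Per3, Bhlhe41, Cdkn1a and Elovl3, were added after their values were seen, and some that the rule takes are not reported. The labels do not say more of the animals behind the replicates than that they are 3 per group. Replicates of a group differed far beyond counting noise (chi-square per gene of at least 102.7), so none was taken as a repeat.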

Additional observations from a re-analysis of the deposited data

How the results depend on the processing

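Arntl, Npas2, Clock, Nfil3 and Cry1 kept a log2 difference above 0 in all 14 alternatives run, and Rora in 5 of 14. The members were chosen on this contrast and the alternatives reuse its libraries, so these counts are a description and test nothing. Cry1 was as low as 0.073, without control replicate 1, where its standard error in the main fit was 0.31. The median of the members was 1.12 in deposited TPM with 0.1 added, and with 1 library left out it ran from 0.62 to 1.06. Rora turned to 0.24 with library totals, 0.40 in TPM, 0.014 without control replicate 1, 0.0056 without Cre-labelled replicate 2 and 0.063 without Cre-labelled replicate 3, in a range from -0.13 without Cre-labelled replicate 1. With library totals, which raised the median of all genes to 0.27, G3bp1 turned to 0.074, Nr2f6 to 0.030 and Csnk2a1 to 0.13. In TPM, where that median was 0.34, G3bp1 turned to 0.18, Nr1d2 to 0.11, Nr2f6 to 0.15, Tipin to 0.12, Csnk2a1 to 0.26 and Tspo to 0.040, and Tspo was at 0.046 with the length trend removed. Timeless turned to 0.0045 with library totals, and with 1 library left out it ran from -0.44, without control replicate 3, to 0.17, without control replicate 1. DESeq2 called 12 genes in all and 2 clock genes outside the members, where edgeR called 0 of each. With 1 library left out edgeR called 0 to 3 genes, the 3 without Cre-labelled replicate 1, and 0 clock genes outside the members in each of these fits. With the replicate number as a block edgeR called 0 genes, and the median of the members was 0.80. The numbers were not taken to pair the animals, since deviations of same-numbered libraries correlated at 0.20, 0.27 and -0.14. The cause of these changes was not tested. Depth limits Npas2 and Arntl most, with 4 to 47 counts per control library.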
